A study of Mus musculus with 2 samples.

Results

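The genes described here are 8 chemokines known for attracting lymphocytes: Cxcl9, Cxcl10, Cxcl16, Ccl5, Ccl22, Cxcl12, Cxcl13 and Cxcl14. They were taken by gene symbol from the 32285 genes of the single-cell matrices, and all 8 were found. The tumors came from KPCA, a mouse line of fallopian tube epithelial cancer cells that carries a Trp53 R172H mutation and overexpresses Ccne1 and Akt2. The grafted cancer cells of both groups lacked Fst, the follistatin gene, while host cells in the tumors did not carry this deletion. KPCA.FSTKO was derived from a single KPCA clone by deletion of Fst. KPCA.FSTKO_hFSTL3 was a single stable clone of that line, transfected with a plasmid for human FSTL3 (a secreted relative of follistatin) and selected in geneticin. Cells were grafted into the peritoneal cavity of female C57BL/6J mice aged 12 to 16 weeks, and omental tumors were dissociated at day 10. For each genotype 4 tumors were pooled into 1 library, so the clone, the pooled mice and the library cannot be told apart, no difference between the groups was tested, and every interval given below is a 95% interval that covers counting error only. Transcripts of human FSTL3 are not in the mouse reference, so the transgene was not measured here.

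Chemokines are small secreted proteins that bind G protein-coupled receptors and guide leukocytes along their gradients. Cxcl9 and Cxcl10 are induced by interferons and bind Cxcr3 on effector T cells and NK cells, while Cxcl16 is made as a transmembrane protein and binds Cxcr6. Ccl5, a product of activated T cells, NK cells and infected or stressed cells, draws T cells, NK cells and monocytes, and Ccl22, a product of mature dendritic cells, binds Ccr4 on regulatory T cells. Cxcl12, Cxcl13 and Cxcl14 are homeostatic chemokines of stromal tissue: Cxcl12 retains Cxcr4-positive cells and is scavenged by Ackr3, Cxcl13 draws Cxcr5-positive B cells into follicles, and Cxcl14 is made constitutively by many epithelia and fibroblasts.

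Each barcode was given a class by counts of marker genes, and barcodes with the markers of 2 or more unrelated lineages were kept apart as mixed. KPCA.FSTKO kept 6777 barcodes with a median of 17253 UMIs (unique transcript molecules), and KPCA.FSTKO_hFSTL3 kept 4041 with a median of 15071. The KPCA.FSTKO_hFSTL3 library stood apart: 3163 of its barcodes (78.3%) were mixed, against 288 (4.25%) in KPCA.FSTKO, and its median mitochondrial share was 10.7% against 3.54%. Pancreatic acinar markers, 16 in all and all detected, had a median of 91.7 UMIs per 10000 in its mixed barcodes and 0.262 in those of KPCA.FSTKO. The marker gate left 3696 cancer, 855 macrophage and 437 stromal cells in KPCA.FSTKO, and 214, 122 and 53 in KPCA.FSTKO_hFSTL3. KPCA.FSTKO also gave 34 dendritic, 85 T/NK, 103 neutrophil, 93 endothelial and 24 B cells, where KPCA.FSTKO_hFSTL3 gave 1, 5, 0, 7 and 1. In KPCA.FSTKO every marker of every class was detected and was higher than in the other barcodes. The classes were set by these same markers, so this is no separate check of them. In KPCA.FSTKO_hFSTL3 it held for 9 of 12 cancer and 11 of 12 stromal markers. Gzma, Klrb1c and Ncr1 were at 0 in its T/NK cells, and its 1 dendritic cell had 3 of 9 markers. The libraries shared 12 barcode sequences.

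All 8 genes were placed on the mouse genome build GRCm38 by the GENCODE M21 annotation. Cxcl9 (ENSMUSG00000029417, chr5:92321347-92328079) and Cxcl10 (ENSMUSG00000034855, chr5:92346638-92348889) lie side by side on the minus strand, and Cxcl13 (ENSMUSG00000023078, chr5:95956951-95961068) lies on the plus strand of the same chromosome. Cxcl16 (ENSMUSG00000018920, chr11:70453983-70459984) and Ccl5 (ENSMUSG00000035042, chr11:83525778-83530518) are on the minus strand. Ccl22 (ENSMUSG00000031779, chr8:94745590-94751699) and Cxcl12 (ENSMUSG00000061353, chr6:117168535-117181367) are on the plus strand. Cxcl14 (ENSMUSG00000021508, chr13:56288643-56296551) is on the minus strand.

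Promoter sequences were matched for 6 of the 8 genes, without Cxcl16 and Ccl5, from RefSeq on GRCm38.p6. The 250 bases before the transcription start are printed 5′ to 3′ on the gene's strand for the 2 interferon-induced genes and for Cxcl13 and Cxcl14, a pair of stromal genes whose order between fibroblasts and myofibroblasts was reversed in KPCA.FSTKO. Capitals mark matches to the letters searched on both strands: GAAANNGAA (interferon-stimulated response element core), TTCNNNGAA (gamma-activated site), GGNNTTTCC (NF-kappa-B site core) and the TATA box, searched as the letters TATAAA. The windows are chr5:92328080-92328329 (minus) for Cxcl9, chr5:92348890-92349139 (minus) for Cxcl10, chr5:95956689-95956938 (plus) for Cxcl13 and chr13:56296552-56296801 (minus) for Cxcl14.
Cxcl9: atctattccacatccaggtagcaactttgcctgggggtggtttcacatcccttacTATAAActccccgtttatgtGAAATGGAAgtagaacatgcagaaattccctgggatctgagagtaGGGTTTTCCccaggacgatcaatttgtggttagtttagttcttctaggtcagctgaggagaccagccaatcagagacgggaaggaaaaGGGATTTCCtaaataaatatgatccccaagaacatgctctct
Cxcl10: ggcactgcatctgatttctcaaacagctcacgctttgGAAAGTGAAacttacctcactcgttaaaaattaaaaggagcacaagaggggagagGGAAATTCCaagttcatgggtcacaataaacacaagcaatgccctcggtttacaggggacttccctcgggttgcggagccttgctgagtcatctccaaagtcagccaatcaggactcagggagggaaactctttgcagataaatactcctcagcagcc
Cxcl13: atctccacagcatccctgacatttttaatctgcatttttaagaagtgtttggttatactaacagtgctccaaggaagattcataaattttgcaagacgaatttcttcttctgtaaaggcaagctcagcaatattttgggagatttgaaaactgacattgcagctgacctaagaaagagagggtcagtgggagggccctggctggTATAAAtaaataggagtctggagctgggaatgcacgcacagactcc
Cxcl14: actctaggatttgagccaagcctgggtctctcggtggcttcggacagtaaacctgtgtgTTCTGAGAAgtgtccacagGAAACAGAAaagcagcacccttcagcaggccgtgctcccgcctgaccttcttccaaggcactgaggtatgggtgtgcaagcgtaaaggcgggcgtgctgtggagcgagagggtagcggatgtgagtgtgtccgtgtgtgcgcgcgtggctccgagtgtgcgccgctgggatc
Cxcl9 held the TATA letters at -195, the response element letters at -175 and the NF-kappa-B letters at -130 and -42, counted as the first base of the match from the start. Cxcl10 held the response element letters at -213 and the NF-kappa-B letters at -158 on the minus strand. Cxcl13 held the TATA letters at -46, and Cxcl14 held the gamma-activated site letters at -191 and the response element letters at -172. No match was found for Ccl22 or Cxcl12. Over all 32851 RefSeq promoters of the same length, 7.13% held the response element letters, 7.02% the gamma-activated site letters, 4.93% the NF-kappa-B letters and 12.4% the TATA letters. A match describes these letters and is not evidence of binding.

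The 8 genes fell into different compartments of the KPCA.FSTKO tumor. Macrophages held most of the UMIs of Cxcl9, Cxcl16 and Cxcl14, dendritic cells those of Ccl22, stromal cells those of Cxcl13, and cancer cells those of Cxcl10 and Cxcl12. The UMIs of Ccl5 were divided mainly between cancer cells and T/NK cells. Over all genes, cancer cells held 106634984 of the 142160061 UMIs of KPCA.FSTKO. Their shares of Cxcl10, Cxcl12 and Ccl5 were smaller than that. Levels of these genes in cancer cells were therefore below those of the whole library. The 8 genes also differed in how many barcodes carried them. In KPCA.FSTKO 50% of the UMIs lay in 6 barcodes for Cxcl13, 9 for Cxcl10, 11 for Ccl5 and 12 for Cxcl9, against 93 for Cxcl14, 157 for Cxcl12 and 326 for Cxcl16. Ccl22 had 101 UMIs in 17 barcodes, with 50% in 3.

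**Figure D1:**
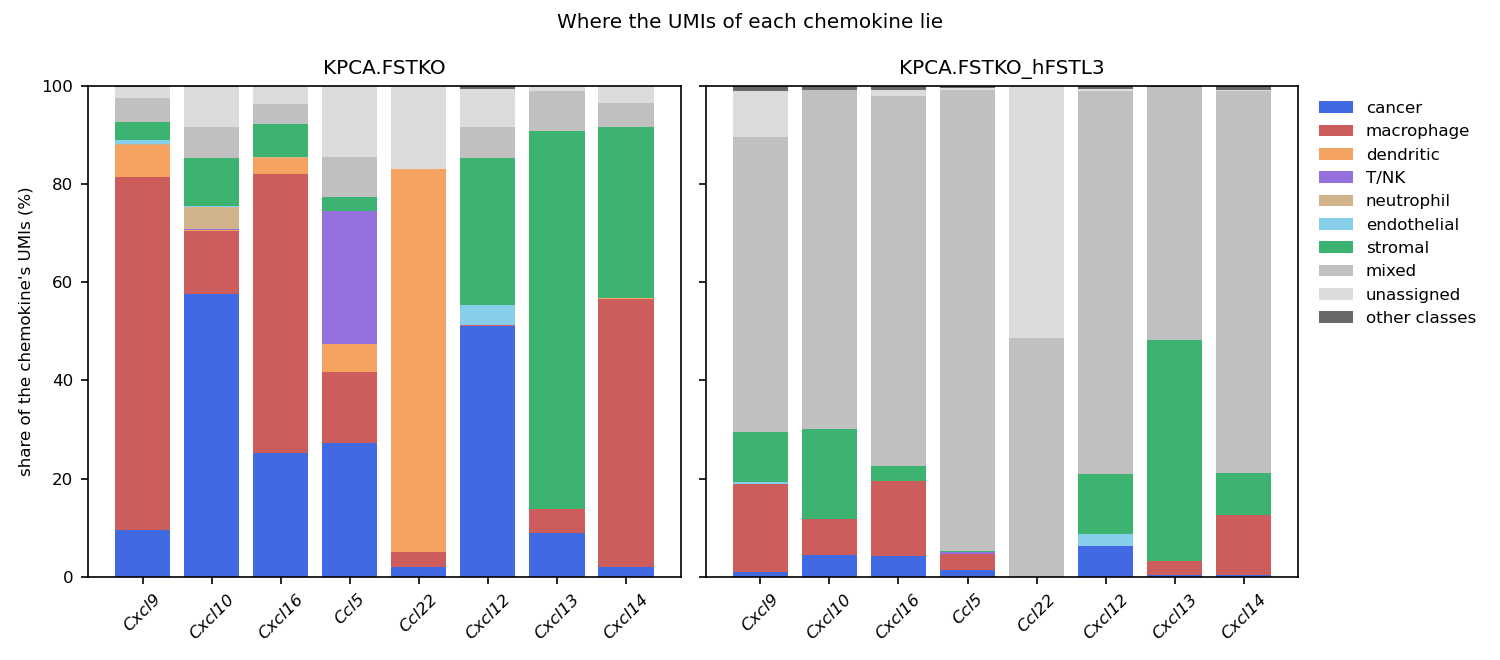
Stacked bars give the share of each chemokine's UMIs (%, y axis) held by each marker-gated class in KPCA.FSTKO (left) and KPCA.FSTKO_hFSTL3 (right), with 1 library per genotype. In KPCA.FSTKO macrophages held 72.1% of Cxcl9 and stromal cells 76.9% of Cxcl13, while mixed barcodes held 48.7% to 94.0% of each chemokine in KPCA.FSTKO_hFSTL3. Over all genes, mixed barcodes held 54905729 of the 69751304 UMIs of that library.

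**Figure D2:**
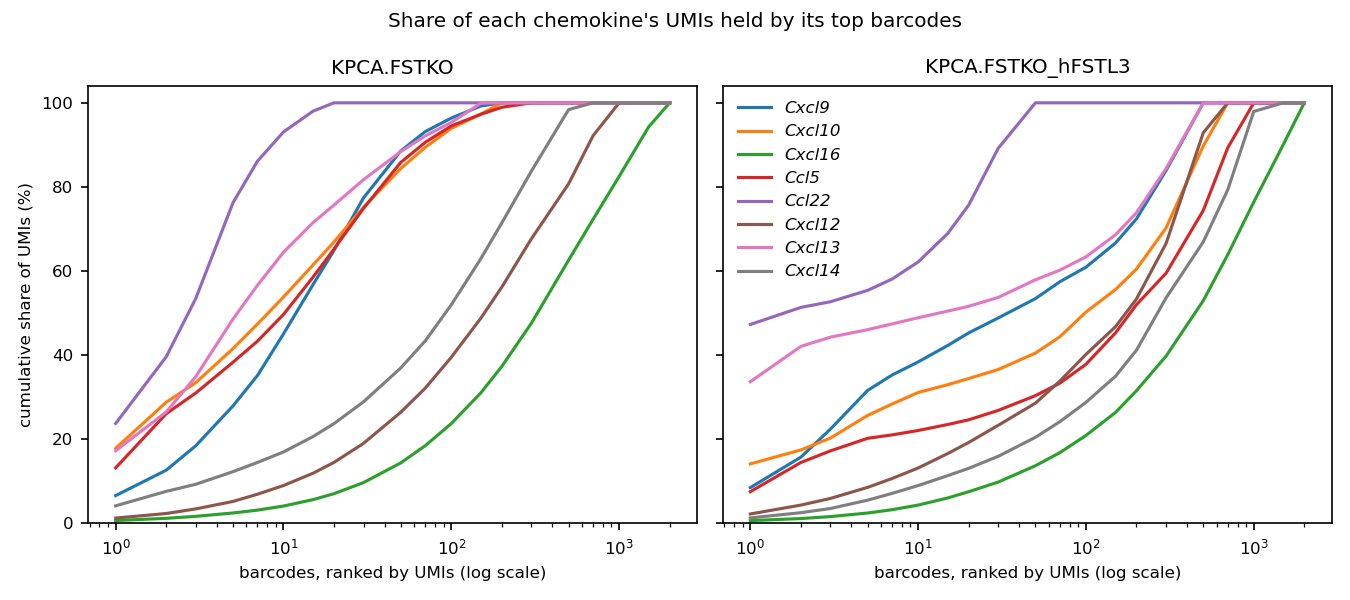
The cumulative share of each chemokine's UMIs (%, y axis) is plotted over barcodes ranked by their UMIs of it (x axis, log scale), for each library. Curves of Cxcl13, Cxcl10, Ccl5 and Cxcl9 rise within a few barcodes in KPCA.FSTKO, where 6 to 12 barcodes reach 50%, while Cxcl16 needs 326.

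Cxcl9, a Cxcr3 ligand and a classical product of interferon-gamma-treated macrophages, was highest in dendritic cells and macrophages of KPCA.FSTKO. Its level in CPM, the UMIs of a gene scaled to a common class total, was 289 (interval 238 to 347) in dendritic cells and 111 (105 to 117) in macrophages, against 1.54 (1.31 to 1.79) in cancer cells. Dendritic cells were 2.61 times macrophages (2.13 to 3.16), and macrophages 72.0 times cancer cells (61.2 to 85.3). Dendritic cells, macrophages and cancer cells were therefore separated beyond counting error, although 63 of the 113 dendritic UMIs lay in 1 cell. Macrophages held 1254 of 1740 UMIs (72.1%). These came from 77 of 855 macrophages (9.01%), against 37 of 3696 cancer cells (1.00%), which were deeper (median 27478 against 12729 UMIs). After each cell was thinned to 1000 UMIs the shares were 3.68% and 0.137%. Cxcl9 was thus found in a minority of macrophages at a mean of 16.3 UMIs per positive cell. Endothelial cells had 20.4 CPM from 16 UMIs and stromal cells 8.07 from 64.

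The macrophages that carried Cxcl9 differed from the others in the genes of the interferon gamma pathway. Carriers were cells with at least 3 UMIs of the chemokine, and they were set against cells of the same class with none. In KPCA.FSTKO 46 macrophages carried Cxcl9 and held 96.8% of its UMIs in the class, against 778 without, with median depths of 16079 and 12555 UMIs. A gene was called higher at 20 or more UMIs over both sets and a CPM ratio of 2 or more, a rule of size that met 5.0% of all genes in this comparison. Of 16 measured genes of the interferon gamma list 9 were higher: Gbp2, Gbp3, Gbp4, Gbp5, Ciita, Socs1, Nlrc5, Iigp1 and Igtp. Gbp2, a guanylate-binding protein of host defence, had a ratio of 16.3 (13.7 to 19.4), and Iigp1, an immunity-related GTPase, 35.4 (27.4 to 46.1). Ciita, the transactivator of MHC class II, had 3.55 (2.26 to 5.42), H2-Ab1, an MHC class II chain, 3.97 (3.75 to 4.20) and Cd74, the class II invariant chain, 3.26 (3.16 to 3.36).

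Genes of the type I interferon list were mostly not past 2-fold with Cxcl9 in macrophages. Only 1 of 14 measured genes was higher, Ifit3, with 5 UMIs in carriers. Stat2 lay below the rule at 1.93 (1.17 to 3.02). Ifit1, an antiviral protein induced by type I interferon, had 0 UMIs in carriers and 70 in the other macrophages. The 0 allows up to 4.15 CPM, against 6.87 in the others, so Ifit1 was not past 2-fold lower. Rsad2, which encodes viperin, had 16.6 CPM in carriers and 35.4 in the others, a ratio of 0.468 (0.240 to 0.828). In KPCA.FSTKO_hFSTL3 6 macrophages carried Cxcl9 (median 28453 UMIs) against 113 without (19764). There 4 of 12 genes of the interferon gamma list and 0 of 8 of the type I list were higher, where the rule met 8.1% of all genes. Gbp2 had a ratio of 15.3 (9.70 to 24.2) in that library, while H2-Ab1 had 0.877 (0.693 to 1.10) and Iigp1 1 UMI in carriers. The MHC class II chain therefore did not repeat the KPCA.FSTKO value in the 6 carriers of the other library.

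Cxcl10, the second Cxcr3 ligand, had its highest level in neutrophils and most of its UMIs in cancer cells. Neutrophils of KPCA.FSTKO had 299.9 CPM (239 to 371) from 84 UMIs, but these came from 6 of 103 cells, and 1 cell had 53. Without the 2 barcodes that held 76.2% of them the level was 73.1. Cancer cells held 1076 of 1865 UMIs (57.7%) at 10.1 CPM (9.50 to 10.7), below the 13.1 CPM of the whole library. Macrophages had 20.9 CPM (18.4 to 23.8) and stromal cells 22.7 (19.5 to 26.3), which did not differ beyond counting error. Both were above cancer cells. Only 102 cancer cells (2.76%; 0.495% after thinning) had a UMI, and 3 of them held 50% of the cancer UMIs. Mesothelial cells, 14 in number, had 106 CPM (69.2 to 155), 16 of their 26 UMIs in 1 cell.

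Cancer cells that carried Cxcl10 had higher levels of both interferon lists. In KPCA.FSTKO 38 cancer cells carried it (median 32722 UMIs) and 3594 had none (27229). Of the interferon gamma list 12 of 17 genes were higher, and of the type I list 12 of 14, where the rule met 7.25% of all genes. Gbp2 had a ratio of 26.3 (23.5 to 29.4) and Iigp1 35.8 (32.5 to 39.4). Irf1, an early interferon gamma target, had 4.81 (4.24 to 5.44). Ifit1 had 364 CPM in carriers and 2.38 in the others, a ratio of 153 (131 to 180), with 258 of the 482 carrier UMIs in 1 barcode. Krt8, an epithelial keratin and gate marker, had a ratio of 1.05 (0.989 to 1.11). Without the 2 barcodes richest in Cxcl10 the counts were again 12 of 17 and 12 of 14.

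**Figure D3:**
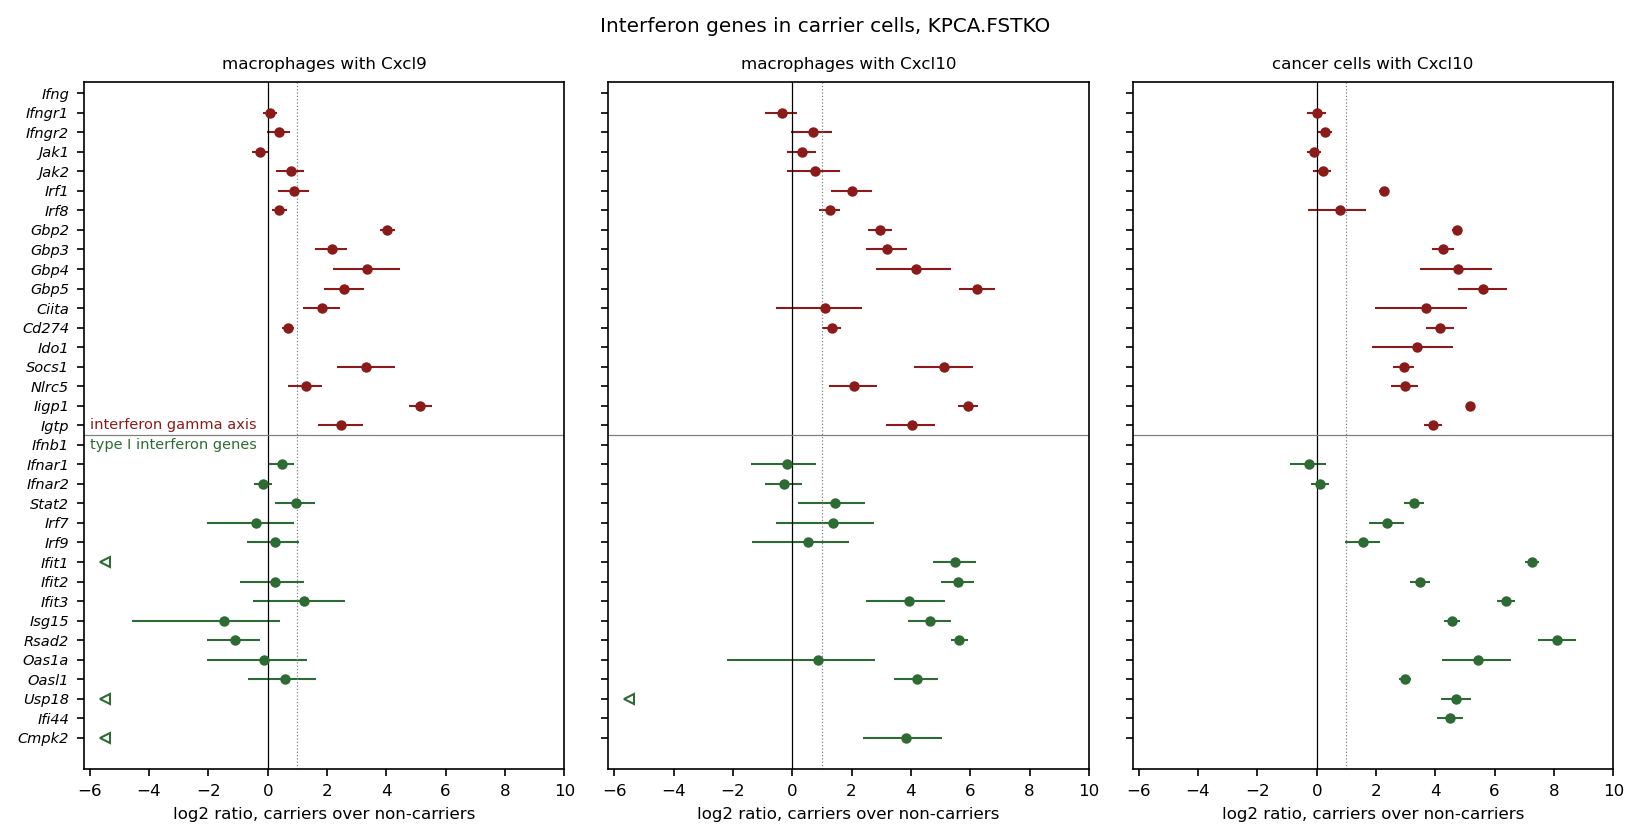
Each point is the log2 ratio (x axis) of a gene's CPM in KPCA.FSTKO carrier cells (at least 3 UMIs of the chemokine named) over cells of the class with none, with its 95% counting interval. Genes with at least 20 UMIs are shown, open triangles mark 0 UMIs in carriers and the dotted line is 2-fold. Ifit1 lies right of the line in both panels for Cxcl10 and has 0 UMIs in macrophages with Cxcl9, where Rsad2 has a ratio of 0.468 and Ifit3 alone among the type I genes lies right of the line. That 0 allows up to 4.15 CPM, against 6.87 in macrophages without Cxcl9.

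The 2 barcodes with most Cxcl10 were cancer cells with 333 and 204 UMIs of it and 75330 and 79466 UMIs in all. They were also the richest cancer cells in Ccl5, with 397 and 148 UMIs. Neither was called a doublet, and both had 0 UMIs of Ptprc, the pan-leukocyte gene, and of Cd3e, a T cell receptor subunit. In macrophages 12 cells carried Cxcl10, and 12 of 16 interferon gamma genes and 9 of 14 type I genes were higher in them, where the rule met 10.1% of all genes. Rsad2 had a ratio of 49.8 (40.6 to 61.0) in these cells. Carriers of Cxcl9 and of Cxcl10 overlapped in part, with 5 macrophages that carried both, 10.9% of the 46 and 41.7% of the 12.

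Cxcl16, the Cxcr6 ligand shed from the membrane by Adam10, was spread over far more cells. Macrophages of KPCA.FSTKO had 214 CPM (205 to 222) and held 2418 of 4246 UMIs (56.9%), and dendritic cells had 350 CPM (294 to 414). A UMI was found in 73.6% of macrophages (19.4% after thinning) and 79.4% of dendritic cells (27.3%). T/NK cells had 4 UMIs in 4 of 85 cells (4.71%; 0% after thinning, which allows up to 3.53%), at a median depth of 4461 UMIs. Cancer cells had 10.0 CPM (9.41 to 10.6) against 7.97 (2.17 to 20.4) in T/NK cells, a difference within counting error. Their share of cells with a UMI was 20.02%, and 1.46% after thinning. Stromal cells lay between, at 35.7 CPM (31.7 to 40.1). In KPCA.FSTKO_hFSTL3 macrophages had 229 CPM (211 to 249). Of the 46 KPCA.FSTKO macrophages that carried Cxcl9, 38 also carried Cxcl16, and Cxcl16 was 2.34 times as high in them as in macrophages without Cxcl9 (2.08 to 2.63).

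Ccl5 was highest in T/NK cells, at 1620 CPM (1510 to 1731) from 811 UMIs. A UMI was found in 54 of 85 T/NK cells (63.5%; 41.2% after thinning), at a mean of 15.02 UMIs per positive cell. Dendritic cells had 437 CPM (374 to 508) from 5 of 34 cells and macrophages 38.6 (35.1 to 42.4). Neutrophils and endothelial cells had 0 UMIs, which allows up to 10.7 and 3.83 CPM. Cancer cells held 819 of 3007 UMIs (27.2%), close to the 27.0% of T/NK cells, but only 56 cancer cells had one (1.52%; 0.220% after thinning). The level in cancer cells was 7.68 CPM, against 21.2 in the whole library. The 2 barcodes named above held 397 and 148 of the 819. A further 387 UMIs lay in 1 barcode that fell in no class. In the 12 cancer cells that carried Ccl5, 6 of 17 interferon gamma genes and 11 of 14 type I genes were higher, where the rule met 9.18% of all genes. Without the 2 richest barcodes the counts were 2 and 6, so the interferon gamma count rested on them.

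Ccl22 was nearly restricted to a few dendritic cells. They held 79 of its 101 UMIs (78.2%) at 202 CPM (160 to 252), from 10 of 34 cells (29.4%; 15.2% after thinning). Macrophages had 3 UMIs in 2 of 855 cells, a level of 0.265 CPM (0.0546 to 0.774), and cancer cells had 2 UMIs. T/NK cells, neutrophils, endothelial cells and stromal cells had 0 UMIs, which allows up to 5.98, 10.7, 3.83 and 0.378 CPM. The 6 dendritic cells with at least 3 UMIs were set against the 24 with none. Ccr7, which guides mature dendritic cells to lymph nodes, had 112 UMIs in these 6 cells and 0 in the others. Fscn1, an actin-bundling protein of mature dendritic cells and a gate marker, had 53 and 1, and Xcr1, a receptor of cross-presenting dendritic cells, had 0 and 62. Ccl5 had 170 and 1 UMIs, and Cd274, which encodes PD-L1, had a ratio of 6.30 (4.29 to 9.30). The MHC class II genes were lower in these cells, H2-Ab1 at a ratio of 0.475 (0.407 to 0.553) and Cd74 at 0.523 (0.473 to 0.576), of which H2-Ab1 was past 2-fold. Ccl17, the other Ccr4 ligand, was at 1846 CPM with Ccl22 and 1684 without, a ratio of 1.10 (0.881 to 1.35). All 6 also carried Cxcl16. In KPCA.FSTKO_hFSTL3 35 of the 74 Ccl22 UMIs lay in 1 barcode that fell in no class.

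**Figure D4:**
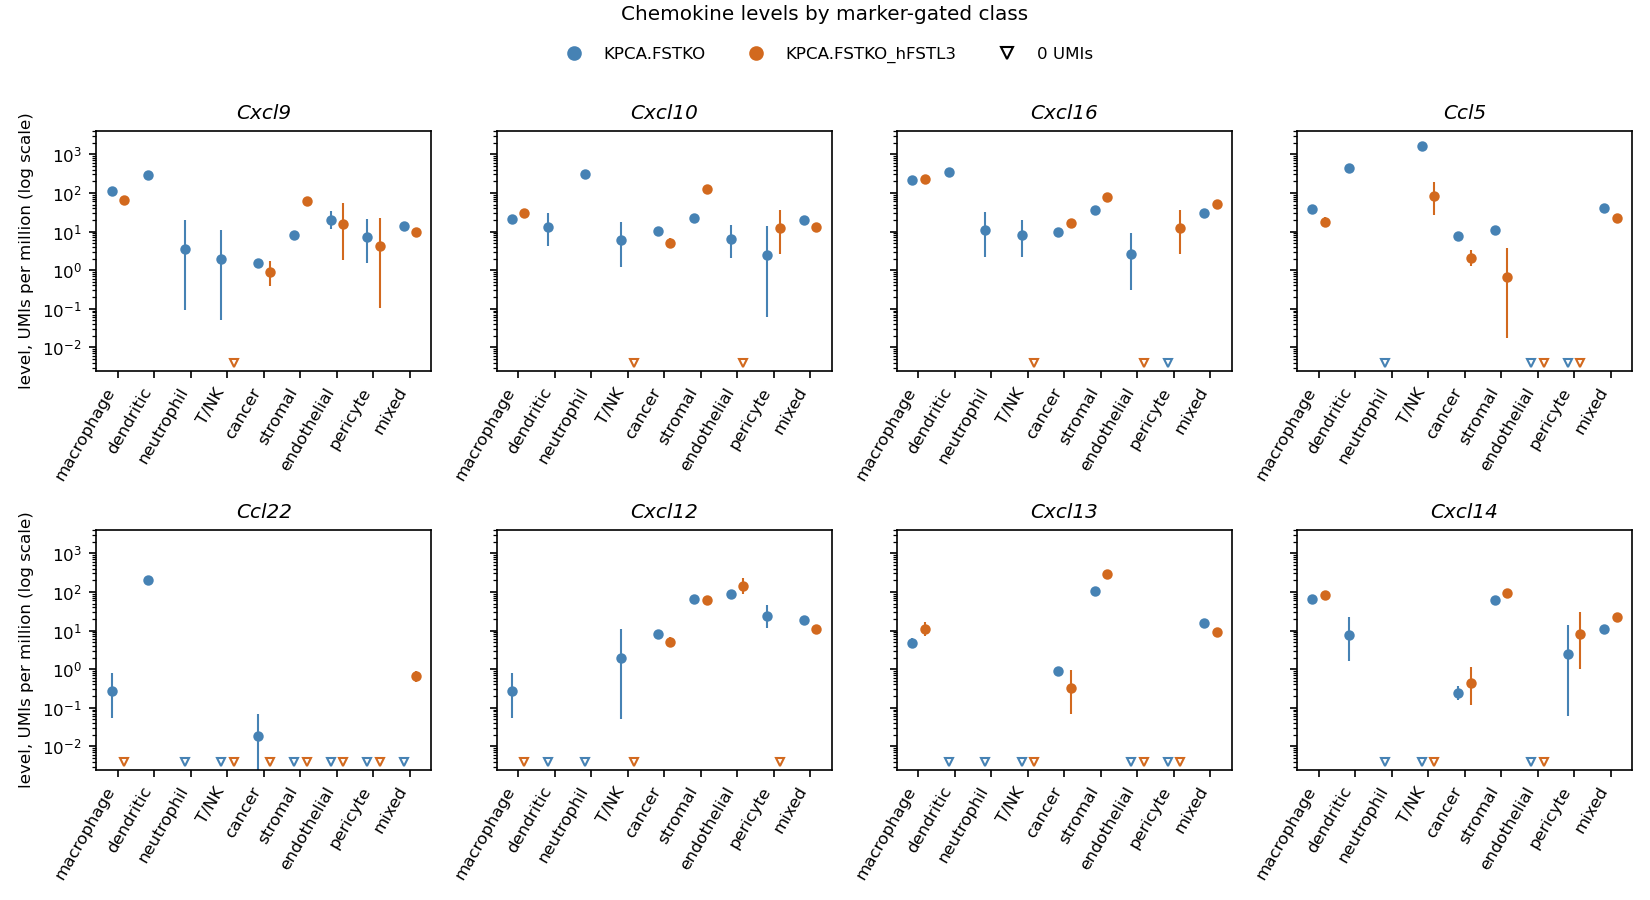
Level of each chemokine (CPM, y axis, log scale) by marker-gated class of at least 5 cells, in KPCA.FSTKO (blue) and KPCA.FSTKO_hFSTL3 (orange), with 95% counting intervals. Triangles at the bottom mark 0 UMIs. Ccl5 peaks in T/NK cells (1620 CPM), Ccl22 in dendritic cells (202 CPM), Cxcl12 in endothelial and stromal cells (89.4 and 66.0 CPM) and Cxcl13 in stromal cells (106 CPM).

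Cxcl12 was highest in endothelial and stromal cells. Endothelial cells of KPCA.FSTKO had 89.4 CPM (69.7 to 113) and stromal cells 66.0 (60.4 to 71.9), a ratio of 1.36 (1.04 to 1.74). The 70 endothelial UMIs lay in 17 of 93 cells (18.3%; 7.23% after thinning), with 22 in 1 cell. With each cell's CPM averaged with equal weight the endothelial level was 64.1, so its place above stromal cells depended on few cells. Pericytes had 24.3 CPM (11.6 to 44.6). Fibroblasts and myofibroblasts did not differ beyond counting error, at 67.2 (60.8 to 74.1) and 66.3 (54.5 to 80.0). Macrophages had 3 UMIs in 855 cells, or 0.265 CPM. Cancer cells had 8.35 CPM (7.81 to 8.91), against 12.3 in the whole library. By their number they held 890 of 1744 UMIs (51.0%). A UMI was found in 40.0% of stromal cells (6.05% after thinning) and 13.8% of cancer cells (1.05%), against 0.351% of macrophages (0.119%). Cancer cells were thus above macrophages, and stromal cells above both. In KPCA.FSTKO_hFSTL3 stromal cells had 63.0 CPM (50.9 to 77.2) and endothelial cells 145 (87.5 to 227), the latter from 7 cells. Of the 19 endothelial UMIs there, 12 lay in 1 cell.

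Cxcl13 and Cxcl14 were both found in stromal cells, with opposite orders between fibroblasts and myofibroblasts of KPCA.FSTKO. Cxcl13 had 106 CPM (99.2 to 114) in stromal cells, which held 842 of its 1095 UMIs (76.9%). Fibroblasts had 136 CPM (127 to 146) and myofibroblasts 4.87 (2.10 to 9.59). It was found in 44 of 437 stromal cells (10.1%; 3.95% after thinning), and 4 cells held 50%, the richest with 189 UMIs. Dendritic, T/NK, neutrophil and endothelial cells had 0 UMIs, and cancer cells 0.910 CPM (0.738 to 1.11). Cxcl14 had 43.4 CPM (38.3 to 49.0) in fibroblasts and 130 (113 to 148) in myofibroblasts. Myofibroblasts were 2.99 times fibroblasts (2.48 to 3.59) in KPCA.FSTKO and 2.87 times (1.92 to 4.37) in KPCA.FSTKO_hFSTL3. The order of Cxcl14 was thus the same in both libraries. For Cxcl13 it was not, since KPCA.FSTKO_hFSTL3 had 43.4 CPM (28.4 to 63.6) in 25 fibroblasts and 119 (94.5 to 148) in 21 myofibroblasts, with all 80 myofibroblast UMIs in 1 cell.

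Of the stromal cells with at least 3 UMIs, 28 carried Cxcl13 and 47 carried Cxcl14 in KPCA.FSTKO, and 0 carried both. In KPCA.FSTKO_hFSTL3 the numbers were 6, 10 and 0. The product of the 2 shares comes to 3.01 cells of 437 and 1.13 of 53, so the counts are too small to say that the carriers differ. Cxcl13 carriers had 7 Cxcl14 UMIs in all, a ratio of 0.207 (0.0828 to 0.430) to stromal cells without Cxcl13. Contractile genes, which are gate markers of myofibroblasts, followed Cxcl14: Acta2 had a ratio of 2.49 (2.29 to 2.70) in Cxcl14 carriers and 0.688 (0.574 to 0.818) in Cxcl13 carriers, and Tagln 3.20 (3.002 to 3.41) and 0.543 (0.463 to 0.633). Of the list of lymphoid stroma genes 2 of 8 were higher with Cxcl13, where the rule met 5.42% of all genes, and 0 of 8 with Cxcl14, where it met 2.33%. The 2 were Icam1, an adhesion molecule for lymphocytes, with 3.23 (2.39 to 4.29), and Pdpn, podoplanin, with 2.21 (1.98 to 2.45). Vcam1 had 1.34 (1.06 to 1.67) and Ltbr, the lymphotoxin beta receptor, 1.34 (0.901 to 1.93). In the 6 carriers of KPCA.FSTKO_hFSTL3 0 of 6 were higher, with Icam1 at 1.04 (0.431 to 2.19) and Pdpn at 0.805 (0.610 to 1.05). Cd74 was higher with Cxcl13 in both libraries, at 5.54 (4.74 to 6.46) and 10.9 (9.04 to 13.1), and H2-Ab1 at 3.13 (2.54 to 3.83) and 8.27 (6.25 to 10.9).

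Cxcl14 was also a macrophage transcript. Macrophages of KPCA.FSTKO had 65.9 CPM (61.2 to 70.8) and stromal cells 60.3 (55.01 to 65.9), levels that did not differ beyond counting error. Macrophages held 746 of 1366 UMIs (54.6%), and 38.8% of them had one (5.70% after thinning), at no more than 11 UMIs in any cell. Cancer cells had 26 UMIs in 3696 cells, a level of 0.244 CPM (0.159 to 0.357) and a share of 0.622% (0% after thinning). T/NK, neutrophil and endothelial cells had 0 UMIs. The macrophage level was therefore far above that of deeper cancer cells.

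In KPCA.FSTKO_hFSTL3 most UMIs of 7 of the 8 chemokines lay in the mixed barcodes, with 48.7% for Ccl22, 51.6% for Cxcl13, 60.1% for Cxcl9, 69.1% for Cxcl10, 75.4% for Cxcl16, 77.9% for Cxcl14, 78.0% for Cxcl12 and 94.0% for Ccl5. Mixed barcodes also held 54905729 of the 69751304 UMIs of all genes in this library. Only Ccl5 had a higher level in them than in the whole library, at 22.9 against 19.2 CPM. Chemokine UMIs were spread thinly over the mixed barcodes. Ccl5 was found in 816 of 3163 mixed barcodes at a mean of 1.54 UMIs per positive barcode, against 15.02 in KPCA.FSTKO T/NK cells, and Ccl22 in 36 barcodes with 1 UMI each. The part of free or shared RNA in these values was not tested. The T/NK class of this library held 5 cells with 5 Ccl5 UMIs. When acinar transcripts were not allowed to make a barcode mixed, it held 15 cells with 206 Ccl5 UMIs, or 1929 CPM (1675 to 2211), in 7 of the 15.

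Between the libraries the chemokines did not move as a group. Ratios are KPCA.FSTKO_hFSTL3 over KPCA.FSTKO on the log2 scale, within 1 class. Acinar markers moved with the library in each class, with medians per 10000 UMIs of 0.204 and 3.77 in cancer cells, 0.516 and 9.37 in macrophages and 0.432 and 6.67 in stromal cells of KPCA.FSTKO and KPCA.FSTKO_hFSTL3, and their part in the ratios was not tested. In cancer cells 0 of 7 measured members were higher and 3 lower by the size rule of 20 UMIs and 2-fold, where 5.83% of all genes were higher and 9.0% lower. The 3 were Cxcl10 at -1.00 (-1.46 to -0.58), Ccl5 at -1.88 (-2.62 to -1.23) and Cxcl13 at -1.47 (-3.77 to 0.12), the last from 97 and 3 UMIs. Without the 1% of cells richest in each, Cxcl10 stood at 1.02 and Ccl5 at 1.31, so both directions rested on those cells. Before that removal KPCA.FSTKO_hFSTL3 had 46 Cxcl10 UMIs in 14 cancer cells, and 19 Ccl5 UMIs with 11 in 1 cell. In KPCA.FSTKO 102 and 56 cancer cells had a UMI. The values without the richest cells therefore also rest on few UMIs. Cxcl16 was at 0.77 (0.52 to 1.02) and Cxcl12 at -0.70 (-1.15 to -0.27). In macrophages 1 of 6 members was higher and 1 lower, where 3.82% and 5.89% of all genes were. Cxcl13 was higher at 1.19 (0.47 to 1.88) from 55 and 27 UMIs, of which 21 of the 27 lay in 1 cell, and Ccl5 lower at -1.09 (-1.57 to -0.64). With each cell's CPM averaged with equal weight they stood at 0.30 and -0.34, both within 2-fold. Without the 1% of cells richest in it Ccl5 stood at -2.01. Its 44 UMIs in KPCA.FSTKO_hFSTL3 lay in 9 macrophages, with 29 in 1 cell. Cxcl9 was at -0.78 (-1.03 to -0.54), with 1254 and 157 UMIs, and Cxcl10 at 0.56 (0.17 to 0.94), with 237 and 75. In KPCA.FSTKO_hFSTL3 the 157 and 75 UMIs lay in 9 and 6 macrophages. Without the 1% of cells richest in each chemokine the ratios stood at -1.13 and 1.83, both past 2-fold. Cxcl16 at 0.10 (-0.03 to 0.24) and Cxcl14 at 0.30 (0.07 to 0.53) were within 2-fold also without those cells, at 0.11 and 0.30.

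In stromal cells 4 of 7 members were higher and 1 lower, where 3.1% and 6.63% of all genes were. Cxcl9 had 64 and 90 UMIs, KPCA.FSTKO first, a ratio of 2.92 (2.44 to 3.40). Cxcl10 had 180 and 188, a ratio of 2.49 (2.19 to 2.79). A single myofibroblast barcode of 29885 UMIs, with 0 UMIs of Ptprc and 2 of Krt8, held 145 of the 188 Cxcl10 UMIs and 63 of the 90 Cxcl9 UMIs. In KPCA.FSTKO 1 stromal cell held 40 of the 64 Cxcl9 UMIs, and no cell held more than 26 of the 180 of Cxcl10. Without the 1% of cells richest in each, Cxcl9 stood at 4.61 and Cxcl10 at 1.29. These values rest on few cells. Of the 53 stromal cells of KPCA.FSTKO_hFSTL3, 52 were left, and before that 4 had a UMI of Cxcl9 and 4 of Cxcl10. In KPCA.FSTKO 11 and 33 of 437 had one. A mesothelial barcode held 34 of the Cxcl10 UMIs left in KPCA.FSTKO_hFSTL3. The 25 fibroblasts of KPCA.FSTKO_hFSTL3 had 0 Cxcl10 UMIs, which allows up to 5.01 CPM, against 20.5 in KPCA.FSTKO. Cxcl13 had 842 and 430, a ratio of 1.46 (1.29 to 1.63), with 321 of the 430 in 1 mesothelial barcode and 80 in 1 myofibroblast barcode. Within fibroblasts alone its ratio was -1.65 (-2.27 to -1.09), so the stromal direction for Cxcl13 turned with the type of stromal cell. Cxcl16 was higher at 1.10 (0.77 to 1.42), and Ccl5 lower at -4.05 (-9.37 to -1.53) from 89 and 1 UMIs. The 89 lay in 6 of 437 cells, with 46 in 1 cell, and the ratio was -3.01 without called doublets. Cxcl12, with 523 and 93 UMIs, stood at -0.07 (-0.40 to 0.25), and Cxcl14 at 0.66 (0.38 to 0.94), or 1.07 without the richest 1% of cells.

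**Figure D5:**
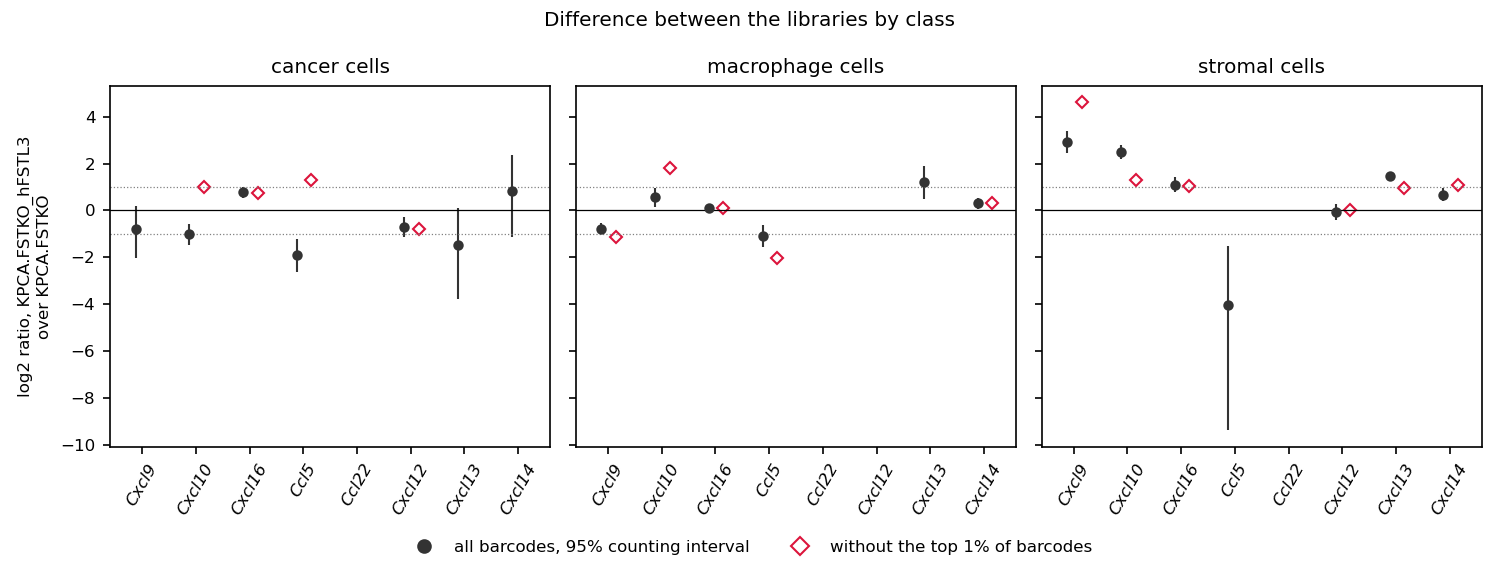
Log2 ratio of each chemokine (y axis), KPCA.FSTKO_hFSTL3 over KPCA.FSTKO, in cancer, macrophage and stromal cells, with 95% counting intervals and 1 library per genotype. Diamonds leave out the 1% of barcodes richest in the chemokine, points and diamonds are absent where a library has 0 UMIs, and dotted lines mark 2-fold. Cxcl10 and Ccl5 in cancer cells change sign without those barcodes (1.02 and 1.31). Cancer cells of KPCA.FSTKO_hFSTL3 had 46 and 19 UMIs of them before that removal.

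The chemokine receptors described here were found mainly in immune and endothelial cells, and Ackr3 also in cancer cells. In KPCA.FSTKO Cxcr3 had 43.8 CPM in T/NK cells from 22 UMIs, and Cxcr6 had 185 CPM from 93. Ccr4 had 7 UMIs in T/NK cells. Cxcr4 was at 114 CPM in endothelial cells, 107 in neutrophils and 44.6 in macrophages. Ackr3, the Cxcl12 scavenger, was at 183 CPM in endothelial cells, 68.9 in macrophages and 48.3 in cancer cells. Cxcr5, the Cxcl13 receptor, had 0 UMIs in T/NK cells and 9 in neutrophils. The 24 B cells of KPCA.FSTKO were not among the classes in which receptors were counted. Ifng, the inducer of Cxcl9, had 38 UMIs in T/NK cells and 0 in cancer, macrophage, dendritic, neutrophil, endothelial, pericyte and stromal cells. Adam10 was at 259 CPM in macrophages and 143 in cancer cells. Of the 3 lymphoid chemokines Ccl19, Ccl20 and Ccl21a, stromal cells had 12 Ccl19 UMIs and 0 of the others.

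The lists fixed around the members gave these counts between the libraries by the same size rule, with the higher count first. Over all genes the rule met 5.83% higher and 9.0% lower in cancer cells, 3.82% and 5.89% in macrophages, and 3.1% and 6.63% in stromal cells. The interferon gamma list had 0 and 8 of 17 in cancer cells, 0 and 2 of 16 in macrophages and 0 and 1 of 15 in stromal cells. In cancer cells the 8 lower genes were Irf8, Gbp4, Gbp5, Ciita, Cd274, Ido1, Nlrc5 and Iigp1, and the median log2 ratio of the list was -0.51 against 0.02 over all genes tested. All of the 8 but Irf8 were also among the genes higher in the 38 KPCA.FSTKO cancer cells that carried Cxcl10. There 12 of the 17 list genes and 7.25% of all genes were higher, so an overlap is likely for any genes of the list. The 38 cells also belong to the KPCA.FSTKO cancer class compared here, so these calls are not independent. The list counts between the libraries were not recomputed without the richest cells. The type I list had 0 and 3, 1 and 0, and 3 and 1, each of 14, with medians of -0.39, 0.40 and 0.07. Receptors had 2 and 0 of 5 (Cxcr6 and Cxcr4), 1 and 0 of 4 (Cx3cr1), and 0 and 3 of 3 (Ccr1, Ackr3 and Cx3cr1). The other lymphocyte chemokines had 0 and 0 of 4, 0 and 1 of 2 (Ccl17), and 0 and 0 of 3. Scavenging and cleavage genes had 0 and 1 of 3, 0 and 0 of 2, and 0 and 2 of 4, and lymphoid stroma genes had 1 and 2 of 9, 1 and 2 of 8, and 0 and 0 of 8. The median over all genes tested was 0.08 in macrophages and 0.03 in stromal cells.

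Genes whose level over classes was most like each member were ranked by Pearson r of log2(CPM + 1) over 19 class sums of both libraries, among 13649 genes. These sums share libraries, so r is a description. Cxcl9 was most like Hfe (0.916) and Vdr (0.915), Ccl5 most like Il12rb2 (0.900) and Klrk1 (0.841), and Cxcl16 most like Zmynd15 (0.903). Il12rb2, an interleukin 12 receptor chain, and Klrk1, the NKG2D receptor, are T and NK cell genes. Cxcl12 was most like Npr2 (0.948), Cxcl13 most like Eya4 (0.931), Cxcl14 most like Abca9 (0.905) and Cxcl10 most like Ppp1r18os (0.863). Ccl22 had too few UMIs to be ranked.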

How the data were processed

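Omental tumor cells of 2 groups were measured by 10x Genomics 3′ single-cell RNA sequencing, with 1 library per group, and samples were grouped by their titles. The authors deposited raw UMI counts per gene and barcode, which are not normalized. Cell Ranger is given as version 3.1.0 with mm10 in the submitters' processing notes, and as 7.2.0 in the matrix headers. The 7582 and 4244 deposited barcodes equal the cell numbers that the methods state after quality control, yet barcodes beyond the stated limits were still in the files. Those limits were applied here: a mitochondrial share under 20% and 201 to 7999 genes.

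Classes were gated per barcode by marker UMIs per 10000 (3 to 100, by class) and by 3 or 4 distinct markers. Barcodes that passed for 2 or more unrelated lineages, acinar cells included, were mixed. Scrublet called 86 (1.27%) and 1 (0.0247%) barcodes as doublets, which were kept; the second number lies below what such a caller finds when it works. Counts were summed per class and given as CPM with exact Poisson intervals, shares with Clopper-Pearson intervals and ratios with conditional binomial intervals. A count of 0 allows up to 3 counts. To compare shares of cells across depths, each cell was thinned to 1000 UMIs, and shallower cells were left out. With 1 library per group there is no replicate error and no test. The scripts were tested on simulated data.

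The genes named are the members, 6 lists around them and, for members with 200 or more UMIs, the 3 genes most like them. Cxcl11 and Mx1 of the lists were not analysed here, and some listed genes and a feature of the line are not reported here. The members and lists were chosen with earlier results of these data known. The gate limits, the carrier limit of 3 UMIs and the genes Cd74, H2-Ab1, Acta2, Tagln, Ptprc, Cd3e and Krt8 were chosen after the data were seen. Alternatives were Seurat 5.3.0 clusters (2000 variable genes, 10 components, resolution 0.8), stricter and looser filters, edgeR 4.0.16 TMM scaling and removal of the top 1% of barcodes. Analyses used Python 3.11.15, scipy 1.17.1, scanpy 1.11.5 and R 4.3.3.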

Additional observations from a re-analysis of the deposited data

Results flagged for a closer look

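Cxcl10 and Cxcl13 moved in opposite directions between the libraries in different classes, all past 2-fold by the size rule when all cells were counted. With KPCA.FSTKO as the denominator, the log2 ratio for Cxcl10 was -1.00 in cancer cells and 2.49 in stromal cells. For Cxcl13 it was -1.47 in cancer cells, 1.19 in macrophages and 1.46 in stromal cells. The difference between the classes was not tested, since each rests on 1 library per genotype. Single barcodes held 145 of 188 stromal Cxcl10 UMIs and 321 of 430 stromal Cxcl13 UMIs in KPCA.FSTKO_hFSTL3, and its cancer cells had 3 Cxcl13 UMIs, with an interval of -3.77 to 0.12 for the ratio. Without the 1% of cells richest in Cxcl10 its ratio was 1.02 in cancer cells and 1.29 in stromal cells, so the opposite directions of Cxcl10 ended. Only 14 cancer cells and 4 stromal cells of KPCA.FSTKO_hFSTL3 had a UMI of Cxcl10 before that removal. With each cell's CPM averaged with equal weight Cxcl13 in macrophages was at 0.30.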

How the results depend on the processing

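Of 328 recomputed values of 63 results, 285 stayed within the counting interval or within 1.5 times of the reported count, 41 moved and 2 reversed. Both reversals came from leaving out the 1% of barcodes richest in the chemokine, in cancer cells: Cxcl10 at 1.02 and Ccl5 at 1.31, from -1.00 and -1.88. Cancer cells of KPCA.FSTKO_hFSTL3 had 46 and 19 UMIs of them before that, so both values rest on few UMIs. The same setting gave log2 ratios of -1.13 for Cxcl9, 1.83 for Cxcl10 and -2.01 for Ccl5 in macrophages and of 4.61 for Cxcl9, 1.29 for Cxcl10, 0.95 for Cxcl13 and 1.07 for Cxcl14 in stromal cells. The mean of single-cell CPM gave -1.07 for Cxcl9, -0.34 for Ccl5 and 0.30 for Cxcl13 in macrophages, -0.50 for Cxcl10 in cancer cells, 0.38 for Cxcl12 and 0.86 for Cxcl13 in stromal cells, and levels of 2140 CPM for Ccl5 in T/NK cells, 64.1 for Cxcl12 in endothelial cells and 125 for Cxcl13 in stromal cells. Seurat clusters gave -0.32 for Cxcl9 in macrophages, 226 CPM for Cxcl10 in neutrophils and 60.2 for Cxcl14 in macrophages. With them macrophages held 75.3% of Cxcl9, 60.5% of Cxcl16 and 60% of Cxcl14 UMIs, and cancer cells 62.9% of Cxcl10, 29.0% of Ccl5 and 61.1% of Cxcl12. No Seurat cluster was dendritic, so the dendritic levels have no value there. All deposited barcodes gave 69.1% of Cxcl9 and 52.6% of Cxcl16 in macrophages and 61.6% of Cxcl10 in cancer cells. Without called doublets macrophages held 74.5% of Cxcl9, and Ccl5 in T/NK cells was 1740 CPM. A ratio of 1.5 in the size rule called 8 pairs of chemokine and class higher and 8 lower, against 5 and 5. The cause of these moves was not tested.

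Settings added after the data were seen changed some counts of listed genes. Without the 2 richest barcodes, or with barcodes up to the 90th percentile of depth, type I genes higher with Cxcl9 in macrophages numbered 2 or 0, interferon gamma genes with Ccl5 in cancer cells 2 or 1, and type I genes there 6 or 6. Lymphoid stroma genes with Cxcl13 numbered 1 under the depth limit. The acinar rules, a lower mitochondrial limit of 10% and TMM scaling moved none of the values recomputed with them beyond its interval. Leaving out barcodes with an acinar share over 1% removed no cell from the classes compared. Its 20 values, counted among the 285, therefore could not move. Lifting the acinar rule left the 214 cancer cells of KPCA.FSTKO_hFSTL3 unchanged. It took macrophages there from 122 to 215 and stromal cells from 53 to 73. Among the levels of KPCA.FSTKO_hFSTL3, which are not among the recomputed values, lifting the acinar rule moved Ccl5 in T/NK cells from 80.8 to 1929 CPM and Cxcl12 in endothelial cells from 145 to 231. Cell numbers limit the rare classes, since KPCA.FSTKO_hFSTL3 had 1 dendritic and 5 T/NK cells, and counts limit rare transcripts: Ccl22 in macrophages had 3 UMIs against 0, so its ratio was not computed.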

Other observations

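Among the other lymphocyte chemokines, Ccl1, Xcl1 and Ccl17 were found in immune cells of KPCA.FSTKO. UMIs of the list as a whole were not restricted to immune cells. Counted over both libraries, 4 of its genes met the UMI limit of the size rule in cancer cells, 3 in stromal cells and 2 in macrophages. T/NK cells had 91 UMIs of Ccl1, a Ccr8 ligand, at 181 CPM, and 30 of Xcl1, which draws Xcr1-positive dendritic cells, at 59.8 CPM. Xcr1 had 67 UMIs in dendritic cells (171 CPM) and 1 in T/NK cells. Ccl17 was at 1836 CPM in dendritic cells and 20.9 in macrophages. Dpp4, a protease that trims Cxcl10 and other chemokines, was at 187 CPM in dendritic cells, 79.7 in T/NK cells, 14.9 in stromal cells and 0.0375 in cancer cells.

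In KPCA.FSTKO_hFSTL3 a barcode of 27435 UMIs that fell in no class had 74 Cxcl9 UMIs, the most of any barcode in that library, with 8 UMIs of Ptprc and 1 of Krt8.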
